A study of Saccharomyces cerevisiae with 27 samples.

Results

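The genes of chromosome VII were described one after another along the chromosome in a yeast strain in which their transcripts stood about 2-fold above those of the wild type. The rule took the rows of the count table whose systematic name begins with YGL (left arm) or YGR (right arm) and that held at least 10 counts in every one of the 27 libraries. This left 536 of the 593 rows of the chromosome and of 7122 gene rows in all, with 247 members on the left arm and 289 on the right arm. All 3 strains were haploid derivatives of BY4741, according to the methods, in which the chromosomal ALA1 gene, which encodes alanyl-tRNA synthetase, was deleted and the enzyme was supplied from a plasmid. The study asked what loss of editing or of aminoacylation by this enzyme does to the cell. The G906D strain carried the enzyme with the G906D change, which lowers aminoacylation, the C719A strain carried the enzyme with the C719A change in its editing domain, and the WT strain carried the unchanged enzyme. The methods describe each mutant as obtained by plasmid shuffling and do not say whether several isolates were sequenced, so strain and isolate cannot be told apart. Each strain was grown at 30 °C (0 h) and moved to 37 °C, where it was sampled at 1 h and at 2 h, giving 3 libraries of poly(A) RNA (A, B and C) at each time. The libraries of a group are described as biological replicates, with no statement on separate cultures, so p-values measure the spread between these libraries. Total counts ranged from 14471528 to 23057641 per library.

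A haploid yeast cell has a single copy of each chromosome. When a whole chromosome is gained, most of its genes are transcribed in proportion to their copies, and a gene is called dosage-compensated when its transcript or protein stays near the level of a cell without the extra chromosome. Subunits of ribosomes, proteasomes and other complexes are the standard examples of proteins that are brought back to balance after translation. DNA copy number was not measured in these files, and its part in the result was not tested. The members were selected on the comparison of G906D with WT, so values of that comparison are a description and carry no test. Tests were made on what the choice did not use, which was the comparison of C719A with WT and the response to heat within each strain. The difference of the heat response between G906D and WT was also tested. It is the change at 2 h minus the change at 0 h, so that a shift equal at both times cancels, but it uses the same libraries as the comparison the members were selected on.

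Changes are log2 fold changes from edgeR with their standard errors (SE), in which 1 stands for a 2-fold higher level, and levels are CPM, read counts scaled to the library total and by TMM, a factor that sets the bulk of genes level between libraries. A member's departure is its change in G906D against WT minus the median change of the 536 members at the same time, so that 0 means that the gene moved with its chromosome. A member was put in the low class when its departure was −0.75 or less at 0, 1 and 2 h, and in the high class when it was 0.75 or more at all 3 times. The libraries held transcripts of alpha-cell genes, although BY4741 is known as an a strain, and also some of a-cell genes. SAG1, the alpha agglutinin, was between 65.0 and 828 FPKM over the 27 libraries, STE2, the a-cell receptor, between 6.01 and 69.9 FPKM, MFA1, an a-factor gene, between 23.9 and 795 FPKM, and BAR1, the a-cell protease, between 3.93 and 11.3 FPKM. ALA1 itself averaged 2680 ± 118 CPM in G906D, 5417 ± 525 CPM in C719A and 2810 ± 298 CPM in WT at 0 h (SD, n = 3 each).

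Short stretches upstream of 7 members are shown because they hold the words of 2 regulators whose known targets include members with high values. These are TGACTC, the core of the sites of Gcn4, the activator of amino acid biosynthesis genes, and TGAAACA, the site of Ste12, the factor of the pheromone response. The 400 bases before each start codon were read on both strands from the R64 genome of RefSeq, whose coordinates are used here only for these sequences, because the authors' build is not given in the sources used here. TGACTC stood before 57 of the 517 members with an R64 record (11%), against 10.3% of 6007 promoters in the genome, and TGAAACA before 52 of them (10.1%), against 9.87%. Of the 9 members on the list of amino acid biosynthesis genes, 5 held TGACTC, and MF(ALPHA)2 was the 1 of 5 pheromone and cell type members that held TGAAACA. The capitals mark the words as they read on the strand of the gene, so that TGACTC on the other strand appears as GAGTCA and TGAAACA as TGTTTCA. A match is a description of letters and not of a bound site.
STR3 (chrVII:156359-156412, minus strand): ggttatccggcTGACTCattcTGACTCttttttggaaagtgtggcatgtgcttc
ARO5 (chrVII:288231-288290, plus strand): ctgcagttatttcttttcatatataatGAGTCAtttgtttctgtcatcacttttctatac
ASN2 (chrVII:739720-739779, plus strand): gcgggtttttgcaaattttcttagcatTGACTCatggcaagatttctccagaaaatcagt
LEU1 (chrVII:478921-478980, minus strand): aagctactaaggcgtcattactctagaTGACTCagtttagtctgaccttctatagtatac
SER2 (chrVII:911701-911760, plus strand): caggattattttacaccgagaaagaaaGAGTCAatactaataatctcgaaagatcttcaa
MET13 (chrVII:272241-272300, plus strand): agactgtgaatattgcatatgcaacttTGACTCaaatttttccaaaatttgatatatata
MF(ALPHA)2 (chrVII:345321-345381, minus strand): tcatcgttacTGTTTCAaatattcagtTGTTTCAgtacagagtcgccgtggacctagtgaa

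The shift was shared by most of the chromosome. The median change of the members in G906D against WT was 0.90 at 0 h, 0.96 at 1 h and 0.94 at 2 h. The 5370 other genes with the same count minimum had medians of −0.09, −0.05 and −0.09, so the members stood 1.00, 1.01 and 1.03 above them, or 2.00-fold, 2.01-fold and 2.04-fold. No other chromosome came near, since the medians of the other 15 lay between −0.15 and −0.002 at 0 h, between −0.07 and 0.01 at 1 h and between −0.18 and −0.03 at 2 h. In C719A against WT the medians of the members were 0.03, −0.01 and −0.01. The share of all counts that fell on the members was 20.8% ± 0.34 in G906D, 10.95% ± 0.16 in C719A and 11.8% ± 0.15 in WT at 0 h (SD, n = 3 each).

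The shift was alike in the single libraries of a strain and time. Measured as the median over the members minus the median over the other genes, relative to the mean of the WT libraries of the same time, the shift was between 0.979 and 1.011 in the G906D libraries at 0 h, between 1.009 and 1.022 at 1 h and between 1.030 and 1.053 at 2 h. The C719A libraries lay between −0.008 and 0.037 and the WT libraries between −0.013 and 0.009 over all times, and no library of either strain overlapped with those of G906D. In all 3 G906D libraries, and as a description, 444 members at 0 h, 493 at 1 h and 477 at 2 h were above all 3 WT libraries, where 31.8%, 20.5% and 35.6% of all 6386 genes were. Below all 3 were 11, 2 and 15 members, where 31.1%, 21% and 37.3% of all genes were. Counted at the same threshold as the tests below, and likewise only as a description because the members were selected on this comparison, 452, 493 and 456 members were higher in G906D than in WT at 0, 1 and 2 h, where 30.9%, 16.3% and 31.9% of all genes were. By the same count 13, 2 and 10 members were lower, where 33.2%, 15% and 33.2% of all genes were.

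**Figure D1:**
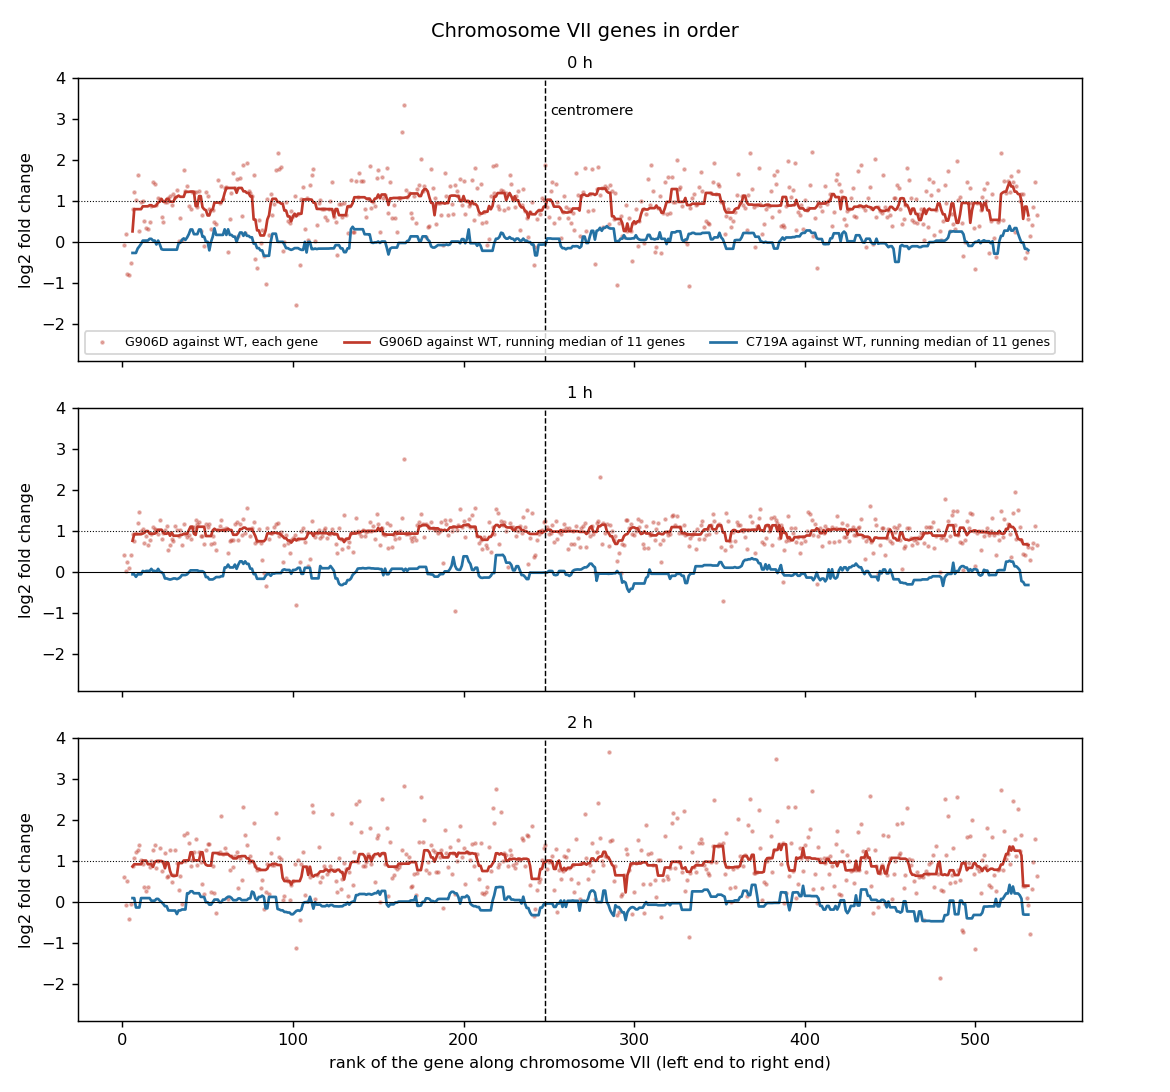
Change of each of the 536 members in G906D against WT (points, log2 fold change) by rank along chromosome VII at 0, 1 and 2 h, with the running median of 11 genes in red and that of C719A against WT in blue. The dotted line is a 2-fold rise and the dashed line the centromere. The red line stays between 0.16 and 1.46 at 0 h, between 0.66 and 1.17 at 1 h and between 0.24 and 1.41 at 2 h, and the blue line runs near 0.

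Both arms carried the shift. The left arm had medians of 0.95, 0.96 and 0.95 at 0, 1 and 2 h, and the right arm 0.87, 0.96 and 0.93. In 20 consecutive blocks of 27 members (23 in the last), the median lay between 0.69 and 1.20 at 0 h, between 0.82 and 1.09 at 1 h and between 0.59 and 1.28 at 2 h, so no block was left at the WT level. In C719A the block medians lay between −0.16 and 0.28 at 0 h and between −0.18 and 0.21 at 1 h. At 2 h they lay between −0.46 and 0.18, with the lowest in the block from YGR214W to YGR242W, which had a median of 0.69 in G906D at that time. The lowest block in G906D at 0 h and 2 h, from YGL179C to YGL151W, had medians of 0.69, 0.83 and 0.59 and holds MPT5 and RCK1, which are described below as single genes. Departures of adjacent members were weakly alike, with correlations of 0.23, 0.18 and 0.18 over the 535 pairs of neighbours at 0, 1 and 2 h, which share libraries and, for overlapping genes, reads.

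Members beside the centromere lay near the chromosome's median, with EFM5 above it. ERP6 (YGL002W) and ERG26 (YGL001C), the last members before it, changed by 1.07 and 1.04 at 0 h, and SWC4 (YGR002C), shortly after it, by 0.87. EFM5 (YGR001C), the first member of the right arm and a methyltransferase for translation elongation factor, changed by 1.90 ± 0.08, 1.25 ± 0.08 and 1.40 ± 0.08 (SE) at 0, 1 and 2 h. The left end was lower. COS12, the outermost member and one of a family of near-identical subtelomeric genes whose reads cannot be assigned with certainty, changed by −0.06 ± 0.38, 0.42 ± 0.39 and 0.62 ± 0.42. The first 10 members from the left end had medians of 0.22, 0.59 and 0.74, and the last 10 on the right had medians of 0.61, 0.64 and 0.39. In C719A the same 10 members at the left end had medians of −0.21, −0.03 and 0.01 and those at the right end −0.28, −0.33 and −0.38. At the right end, the maltose genes MAL13, MAL11 and MAL12 changed by −0.25, 0.57 and 0.42 in G906D at 0 h, whereas PAU12, farther out, changed by 1.47 and COS6, the outermost, by 0.65. The MAL, PAU and COS genes all have close copies at other chromosome ends.

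The members differed among themselves as much as genes elsewhere did. The SD of the change around the chromosome's own median was 0.60, 0.35 and 0.67 at 0, 1 and 2 h on chromosome VII, against 0.52 to 0.63, 0.28 to 0.48 and 0.58 to 0.83 on the other 15. Between 0.5 and 1.5 lay 336 members at 0 h (62.7%), 477 at 1 h (89.0%) and 332 at 2 h (61.9%), and 250 members stayed within these bounds at all 3 times. Below 0 were 39, 10 and 31 members, but only RCK1, MPT5 and YGR161C-D, as named below, were below 0 at all 3 times. Departures at separate times, which come from separate libraries, correlated at 0.59 between 0 h and 1 h, 0.71 between 0 h and 2 h and 0.63 between 1 h and 2 h over the 536 members.

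**Figure D2:**
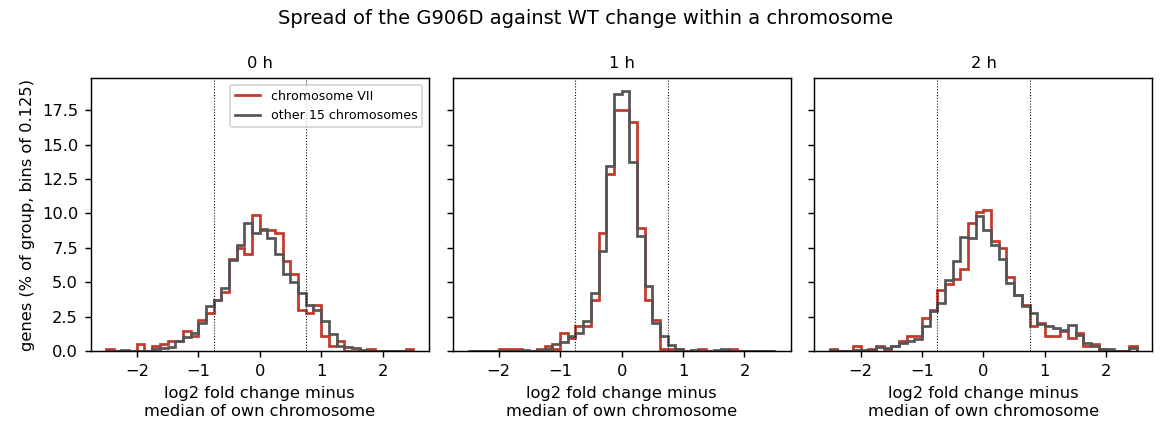
Distribution of the G906D against WT change around the median of the gene's own chromosome, as a percentage of genes, for chromosome VII (red, 536 genes) and the other 15 chromosomes (grey, 5288 genes). Values beyond 2.5 are drawn in the outermost bins, and the dotted lines mark the departure of 0.75 that sets the classes. The outlines lie over each other at all 3 times, with an SD on chromosome VII of 0.60, 0.35 and 0.67.

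At single times, departures of −0.75 or less were found in 58 members at 0 h (10.8%), 19 at 1 h (3.54%) and 54 at 2 h (10.1%). On the other 15 chromosomes, measured around each one's own median, the shares were 9.47%, 2.78% and 8.42%. Departures of 0.75 or more were found in 47, 4 and 61 members (8.77%, 0.746% and 11.4%), against 11%, 1.17% and 14.4% elsewhere. At all 3 times, 8 members were low (1.49%), where 1.12% of the 5288 genes of the other chromosomes were, and 1 was high (0.187%), where 0.662% were. The share of members that held back from the shift, or ran ahead of it, was thus near the share of genes that did so on chromosomes with no shift.

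The low class held RCK1, GND2, YPS5, MGA1, YGR161C-D, MPT5, GSC2 and INO80. YGR161C-D is a gene of a Ty retrotransposon, which has many near-identical copies in the genome, so that its reads cannot be placed with certainty. It was at 15.7, 15.4 and 14.1 CPM in G906D, against 27.8, 20.2 and 21.8 CPM in WT at 0 h. Just inside the rule were INO80, with a departure of −0.81 at 1 h, and GND2, with −0.82, and just outside were PYC1, with −0.73 at 1 h, and PMR1, with −0.72. On the high side the nearest member outside was CGR1, with 0.58 at 1 h. The count of the low class moved with single libraries of 1 h. It was 4 without the G906D 1 h library A, 14 without the G906D 1 h library B, 14 without the G906D 1 h library C and 12 without the WT 1 h library B. The G906D 1 h library A stood apart from B and C. The chi-square per degree of freedom, which is larger the more 2 libraries differ, was 108 and 106 between it and these, and 9.10 between B and C. Over all 27 pairs within groups it lay between 7.26 and 127, with the highest value between the WT 0 h libraries A and B. RCK1, MPT5 and YGR161C-D were in the class in all 37 fits made, and MF(ALPHA)2 was the high member in every one of them.

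INO80, the ATPase of a chromatin remodelling complex, overlapped with WT at each time. Its transcript was at 224, 238 and 212 CPM in G906D, against 228, 165 and 261 CPM in WT at 0 h. At 1 h it was at 151, 197 and 180 CPM in G906D, against 169, 155 and 151 CPM in WT. At 2 h the values were 174, 185 and 180 CPM in G906D and 190, 169 and 172 CPM in WT. The changes were 0.04 ± 0.12, 0.15 ± 0.12 and 0.02 ± 0.12 (SE), while NUT1, the member before it, changed by 1.08, 0.98 and 0.87. In C719A, INO80 fell by 0.86 ± 0.12 at 0 h (adjusted p = 3.43e-06), 0.42 ± 0.12 at 1 h (adjusted p = 0.00855) and 0.64 ± 0.12 at 2 h (adjusted p = 9.73e-05, edgeR). INO80 overlaps a dubious reading frame on the other strand, YGL149W, and the libraries as described do not mark strand, so reads of the overlap cannot be told apart.

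MPT5, a Puf-family RNA-binding protein that represses its target transcripts, was likewise not above WT. It stood at 98.3, 105 and 106 CPM in G906D, against 136, 106 and 151 CPM in WT at 0 h, and at 124.6, 129 and 119 CPM in G906D, against 131, 140 and 146 CPM in WT at 2 h. The changes were −0.34 ± 0.14, −0.03 ± 0.14 and −0.16 ± 0.14 at 0, 1 and 2 h. In C719A, MPT5 fell by 0.96 at 0 h (adjusted p = 6.79e-06) and by 0.86 at 1 h (adjusted p = 4.51e-05), and its change of −0.32 at 2 h did not pass the test (adjusted p = 0.0588, edgeR). Its neighbours were also under the shared shift, since TOS3, before it, changed by 0.29, 0.31 and 0.53 in G906D and YGL177W, after it, by −1.02, −0.34 and 0.25.

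GSC2, the stress-induced catalytic subunit of the cell wall glucan synthase, stood at 265, 269 and 291 CPM in G906D, against 384, 366 and 454 CPM in WT at 0 h, with no overlap. After heat it was high in both strains, at 778, 823 and 797 CPM in G906D and 636, 736 and 905.7 CPM in WT at 2 h. The changes were −0.55 ± 0.15, −0.01 ± 0.15 and 0.07 ± 0.15. In C719A, GSC2 fell at each time, by 0.72, 1.05 and 0.44 (adjusted p = 0.00035, 7.67e-06 and 0.0162). Its neighbours IMO32 and TIM21 changed by 0.78 and 1.31 in G906D at 0 h.

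RCK1, a protein kinase of the oxidative stress response, had the lowest mean departure over the 3 times, −2.09, with −2.43 at 0 h, −1.76 at 1 h and −2.07 at 2 h. At 0 h it stood at 45.4, 57.3 and 121 CPM in G906D, against 46.8, 472 and 124 CPM in WT, so the groups overlapped and the WT library B stood apart. Without that library the departure at 0 h was −1.11, which still kept RCK1 in the class. At 2 h the values were 539, 424 and 391 CPM in G906D and 933, 876 and 1158 CPM in WT, with no overlap and a change of −1.13 ± 0.47. The neighbours of RCK1 stood above WT, YGL159W by 1.13, 0.90 and 0.94 and ARI1 by 0.69, 0.81 and 1.02. In C719A its changes of 0.97, −0.75 and −0.77 did not pass the test (adjusted p = 0.0862, 0.217 and 0.166).

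GND2, the minor isoform of 6-phosphogluconate dehydrogenase in the pentose phosphate pathway, changed by −0.66 ± 0.25, 0.14 ± 0.23 and −1.15 ± 0.24 in G906D. It stood at 240, 205 and 178 CPM in G906D, against 650, 368 and 366 CPM in WT at 2 h, without overlap. In C719A, GND2 rose by 0.62 at 0 h (adjusted p = 0.0317) and fell by 1.82 at 2 h (adjusted p = 8.48e-07). MGA1, which encodes a protein like the heat shock factor, changed by −0.34, 0.06 and −0.74 in G906D, and in C719A it fell by 1.46 at 2 h (adjusted p = 6.78e-06). YPS5, an aspartic protease gene of the yapsin family near the left end, changed by −0.80 ± 0.28, 0.09 ± 0.26 and −0.42 ± 0.26 in G906D at levels of 8.05 to 24.8 CPM. Its neighbours PAU11 and YGL258W-A changed by −0.78 and −0.52 in G906D at 0 h, and those of MGA1, SOL4 and RIE1, by 0.47 and 0.0045 at 0 h and by −0.67 and 0.99 at 2 h. YPS5 fell in C719A by 1.30 at 0 h (adjusted p = 0.000575) and by 1.15 at 2 h (adjusted p = 0.000703). The mutants share the WT libraries, so a low value in both comparisons can rest on the same WT values. Measured against C719A in place of WT, which uses no WT library, 7 members were low at all 3 times, and RCK1 was the 1 of them that was also low against WT. INO80 then departed by 0.0, −0.38 and −0.27, GSC2 by −0.73, 0.09 and −0.42 and MPT5 by −0.29, −0.13 and −0.78.

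**Figure D3:**
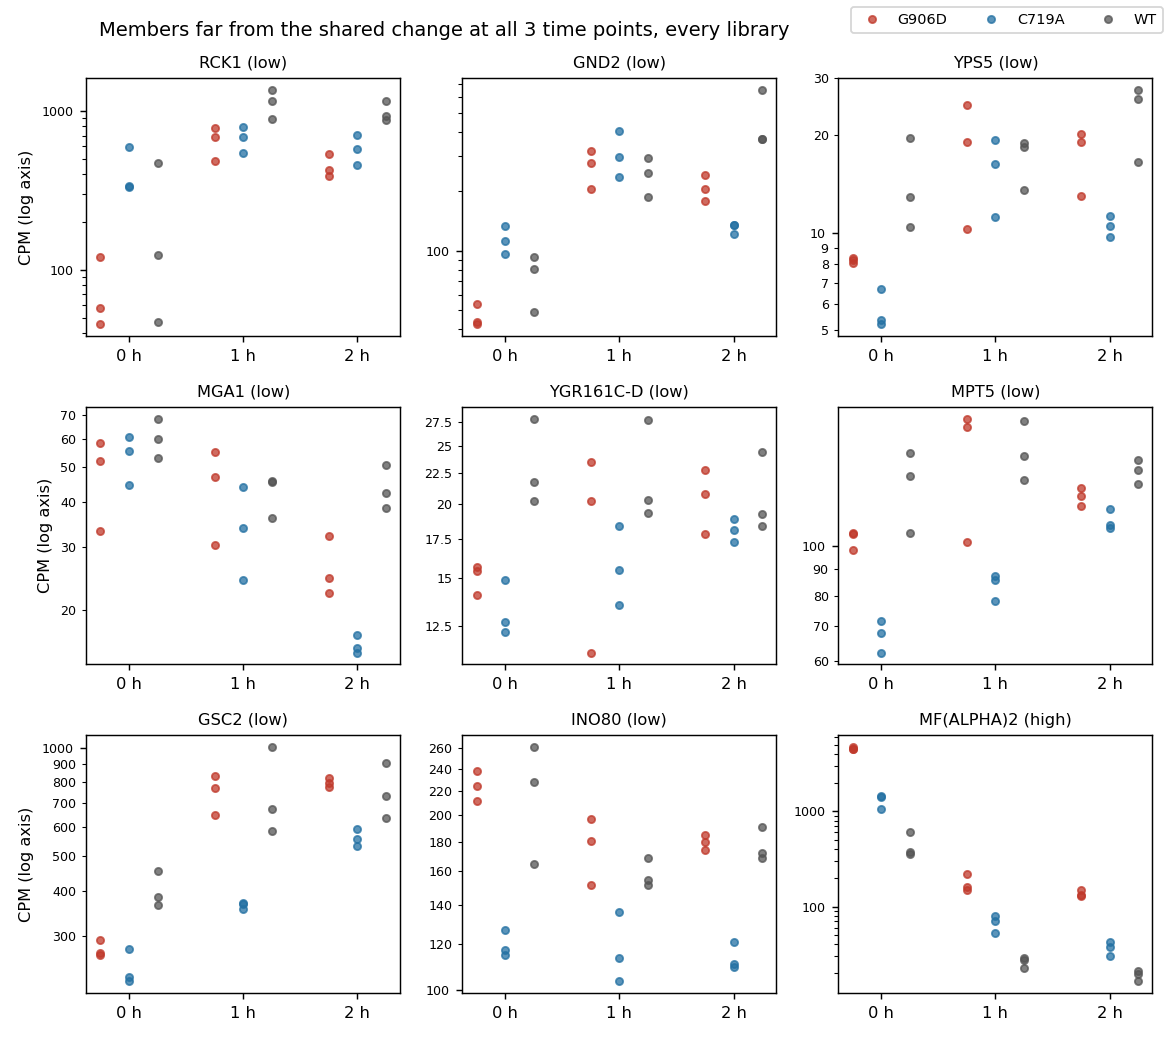
Levels of the 8 low members and of MF(ALPHA)2, the high member, in all 27 libraries (CPM, log axis), with G906D, C719A and WT side by side at 0, 1 and 2 h and a point for each library. G906D and WT points of INO80 overlap at each time, whereas those of MF(ALPHA)2 are apart at each time.

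MF(ALPHA)2, which encodes a precursor of the mating pheromone alpha-factor, was the only member in the high class. It stood at 4494, 4541 and 4730 CPM in G906D, against 372, 613 and 354 CPM in WT at 0 h. At 1 h it was at 220, 162 and 150 CPM in G906D, against 27.5, 28.5 and 22.5 CPM in WT, and at 2 h at 129, 132 and 148 CPM in G906D, against 16.4, 21.0 and 19.8 CPM in WT. No library of G906D overlapped with one of WT, and the changes were 3.36 ± 0.21, 2.76 ± 0.20 and 2.84 ± 0.21. In C719A it rose by 1.54 at 0 h, 1.37 at 1 h and 0.94 at 2 h (adjusted p = 6.5e-07, 7.13e-06 and 0.000302). Between 0 h and 2 h it fell by 5.07 in G906D, fell by 5.15 in C719A and fell by 4.55 in WT. Measured against C719A in place of WT, its departures were 0.911, 0.439 and 0.965, so by that measure it was not in the high class. SAG1, STE3 and MF(ALPHA)1, alpha-cell genes on other chromosomes, were also higher in G906D at 0 h. Their medians were 801, 258 and 5213 FPKM in G906D, against 262, 168 and 2236 FPKM in WT. In C719A they were 621, 235 and 4383 FPKM. The a-cell genes of other chromosomes were mixed at 0 h. MFA1 and STE2 had medians of 61.6 and 8.14 FPKM in G906D, against 32.3 and 6.71 FPKM in WT. MFA2 and BAR1 had 51.8 and 4.03 FPKM, against 71.7 and 6.13 FPKM in WT. At 2 h MFA1, STE2, MFA2 and BAR1 had 310, 36.8, 171 and 9.27 FPKM in G906D, against 36.8, 13.0, 77.5 and 6.92 in WT. The neighbouring LIF1, which encodes the partner of DNA ligase IV in end joining and is written towards MF(ALPHA)2 without overlap of the coding regions, changed by 2.68, 1.33 and 1.27. The next member on the other side, MMS2, changed by 1.28, 0.93 and 1.18. AGA2, an a-cell agglutinin gene of the chromosome, was 1 of the rows just under the count minimum and is no member. It had 9 counts in its lowest library, WT 0 h B, and 718 in its highest. Its medians were 19.3, 28.2 and 150 FPKM in G906D at 0, 1 and 2 h, against 3.78, 6.82 and 6.07 FPKM in WT. In C719A they were 19.9, 75.8 and 83.5 FPKM. The high class holds only members, so AGA2 could not enter it. Under the minimum as well were BIL2 and YGL118C, both with a lowest count of 6. Just above it, with a lowest count of 11, were YGL034C, YGL149W, HUR1, PAU11 and YGR190C.

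The 14 cytosolic ribosomal protein genes of the chromosome stood above the shared shift at 0 h and 2 h. Their departures had medians of 0.87, 0.12 and 1.28 at 0, 1 and 2 h, beside 0 for all members, and lay between 0.29 and 1.03, between −0.10 and 0.33 and between 0.99 and 1.59. RPS26A was at 6136, 6199 and 6318 CPM in G906D, against 1648, 2181 and 1216 CPM in WT at 0 h, and at 2221, 2206 and 2320 CPM in G906D, against 382, 511 and 457 CPM in WT at 2 h. Its changes were 1.89, 1.29 and 2.32. RPL30, a protein of the large subunit that represses its own transcript when in excess, was the lowest of the group at 0 h, with 1.20, 0.93 and 1.93. In G906D against WT the 14 on chromosome VII had medians of 1.78, 1.08 and 2.22. The 121 cytosolic ribosomal protein genes on other chromosomes had medians of 0.81, 0.15 and 1.25, so the distance between the groups was 0.97, 0.94 and 0.97. In C719A the medians on chromosome VII were 0.56, 0.42 and 1.29 and those elsewhere 0.55, 0.38 and 1.24. In that strain 13 of the 14 were called higher and 1, RPL28, lower at 0 h, 4 higher and none lower at 1 h, and 14 higher at 2 h (edgeR). The row of RPL28 was far lower than that of RPS26A, with 272, 293 and 289 counts in C719A at 0 h, against 43916, 43541 and 42691. Of all 6386 genes, 27%, 17.3% and 27.5% were called higher and 26.7%, 18.4% and 28.9% lower in C719A at 0, 1 and 2 h.

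Duplicated ribosomal protein genes gave pairs in which 1 copy lay on chromosome VII and its near-identical partner elsewhere. Reads shared between such copies may have been split in a way that the sources used here do not state. In 9 pairs the member exceeded its partner in G906D against WT by medians of 1.00, 1.01 and 1.11 at 0, 1 and 2 h, and by −0.01, 0.11 and −0.01 in C719A. RPS26A and RPS26B, on chromosome V, changed by 1.89 and 0.93 at 0 h and by 2.32 and 1.42 at 2 h. RPL9A and RPL9B stood farthest apart, with changes of 1.78 and −0.60 at 0 h, and in C719A they changed by 0.62 and 0.21.

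Subunits of single enzymes were also split between chromosomes. PFK1, the alpha subunit of phosphofructokinase, was at 2122, 2112 and 1922 CPM in G906D, against 1069, 985 and 1146 CPM in WT at 0 h, without overlap. It changed by 0.94, 0.78 and 1.16, while PFK2, the beta subunit, encoded on chromosome XIII, changed by −0.14, −0.23 and 0.11. RNR4, a small subunit of ribonucleotide reductase, changed by 0.80, 0.76 and 1.01, and its partner RNR2 by −0.05, −0.10 and 0.04. LSC2, the beta subunit of succinyl-CoA ligase, changed by 0.31, 1.15 and 0.48, and LSC1, its alpha subunit, by −0.09, −0.06 and −0.49. HXK2, the main hexokinase in glucose, changed by 0.98, 1.00 and 1.02, and its paralog HXK1 by −1.66, −0.48 and −1.72. The smallest distance among the 14 pairs was that of ENO1 and ENO2, the enolases, with changes of 0.96 and 0.93 at 0 h, 1.43 and 0.85 at 1 h and 2.01 and 2.29 at 2 h.

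**Figure D4:**
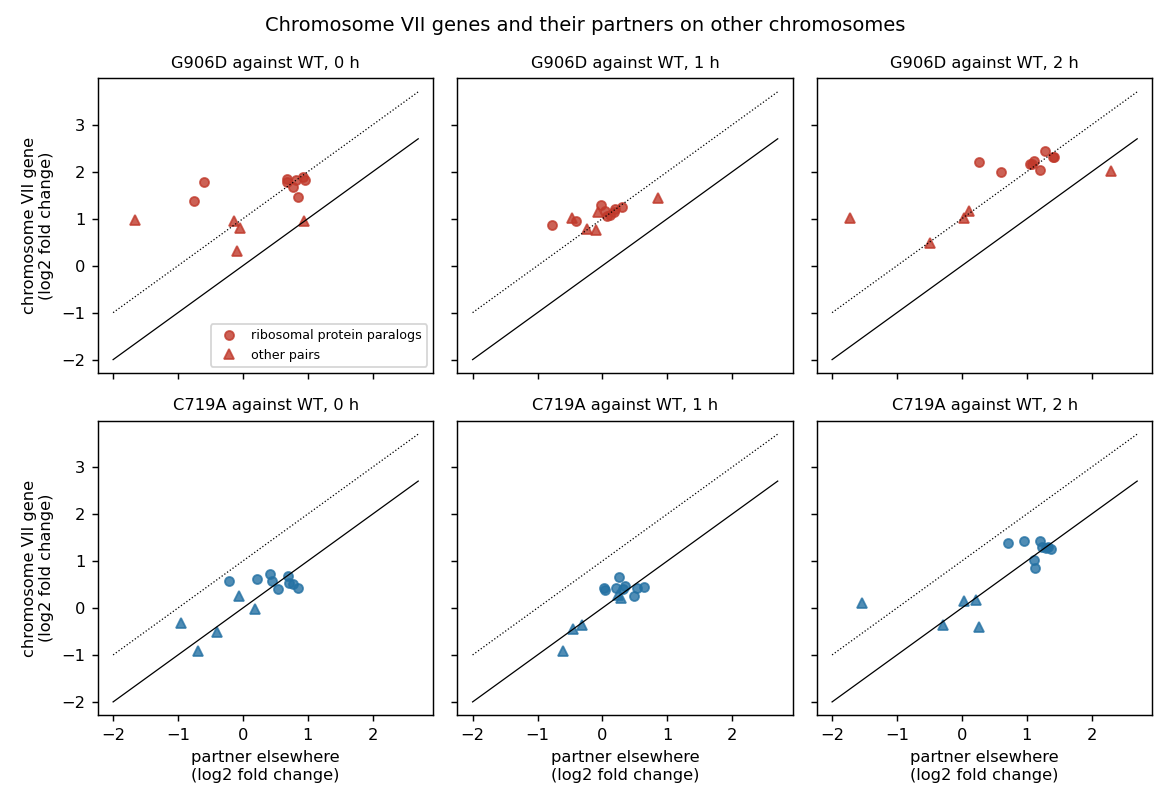
Change of the chromosome VII gene (vertical axis, log2 fold change) against that of its partner on another chromosome (horizontal axis) for 14 pairs, in G906D against WT (red) and C719A against WT (blue) at 0, 1 and 2 h. Circles are ribosomal protein paralogs, triangles are other pairs, the solid line is equal change and the dotted line a member 2-fold above its partner. The pairs gather near the dotted line in G906D, with ENO1 at 0 h and 2 h near or under the solid line, and mostly near the solid line in C719A.

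Genes of other complexes could also be set beside their counterparts on other chromosomes. The 6 mitochondrial ribosomal protein genes of the chromosome had medians of 0.99, 0.87 and 0.45, and the 59 elsewhere 0.23, −0.08 and −0.35. All 6, which included MRPL25, MRPS35 and RSM27, fell in C719A at 1 h and at 2 h, with a median of −1.11 at 2 h, and 1 fell at 0 h. For the proteasome, 5 genes matched by name on chromosome VII had medians of 1.25, 1.33 and 1.52, against −0.02, 0.29 and 0.33 for 29 genes elsewhere. PRE9 and SCL1, alpha subunits of its core, changed by 1.25 and 1.31 at 0 h, and none of the 4 listed members was called higher in C719A, while 1 was called lower at 0 h and at 2 h. COX4 and COX13, subunits of cytochrome c oxidase, changed by 1.24 and 1.57 at 0 h. The 3 respiratory chain members had median departures of 0.34, 0.09 and 0.04, and in C719A 1 rose at 0 h, 2 rose at 1 h and 2 fell at 2 h. Of all genes, 27%, 17.3% and 27.5% were called higher and 26.7%, 18.4% and 28.9% lower in C719A at 0, 1 and 2 h. Beside these shares, nothing is read from the small proteasome and respiratory chain counts.

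Ribosome assembly genes were another group with high departures. Genes of the same kind on other chromosomes were not set beside this list. The same holds for the lists of tRNA charging, amino acid biosynthesis, carbon metabolism and stress. A change of the whole kind of gene can thus not be told apart here from one of chromosome VII. The 12 members on that list had median departures of 0.93, 0.30 and 1.27, with a range from 0.17 to 1.30 at 0 h and from 0.28 to 1.82 at 2 h. NSR1, the yeast nucleolin, changed by 2.20, 1.27 and 2.72 in G906D, and UTP22, of the small subunit processome, by 1.08, 0.92 and 1.22. In C719A, 11 of the 12 rose at 0 h and none fell, 4 rose and 1 fell at 1 h, and all 12 rose at 2 h. Of the 7 genes of tRNA charging, MES1, GUS1 and ARC1 encode the methionyl-tRNA synthetase, the glutamyl-tRNA synthetase and the cofactor that binds them in a complex, and all are on this chromosome. They changed by 1.44, 1.42 and 1.77 at 0 h and by 1.81, 1.39 and 1.63 at 2 h. In C719A, 3 of the 7 rose and 1 fell at 0 h, 2 rose and 1 fell at 1 h, and 5 rose and 1 fell at 2 h, beside 27%, 17.3% and 27.5% of all genes that rose and 26.7%, 18.4% and 28.9% that fell. The gene that fell was MSM1, the mitochondrial methionyl-tRNA synthetase, at each time.

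Amino acid biosynthesis genes departed upwards most at 2 h. The 9 members had median departures of 0.39, 0.27 and 0.98. TRP5, the tryptophan synthase, was at 779, 799 and 862 CPM in G906D, against 166, 177 and 183 CPM in WT at 2 h, and at 851, 937 and 833 CPM in G906D, against 387, 325 and 373 CPM in WT at 0 h, with no overlap at either time. ARO2, the chorismate synthase, changed by 1.64, 1.25 and 2.37. MET13, a methylenetetrahydrofolate reductase of the methionine pathway, was the lowest, with 0.22, 0.60 and 0.15, and has 2 copies of TGACTC upstream. STR3, a cystathionine beta-lyase that also has 2 copies, changed by 1.63, 1.23 and 1.93. In C719A, 6 of the 9 rose and 2 fell at 0 h, 6 rose and 2 fell at 1 h, and 7 rose and none fell at 2 h, where 27%, 17.3% and 27.5% of all genes rose and 26.7%, 18.4% and 28.9% fell. The 3 purine biosynthesis genes had median departures of 0.23, −0.29 and 0.24, with 1 lower at 0 h, 2 lower at 1 h and 1 higher at 2 h in C719A.

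Genes of carbon metabolism and stress had median departures below 0 at 0 h and 2 h. The 10 carbon metabolism members had median departures of −0.52, −0.11 and −0.43, but with a range from −2.09 for GND2 to 1.65 for TDH3 at 2 h. TDH3, the main glyceraldehyde-3-phosphate dehydrogenase and the most abundant member, was at 29257, 33069 and 35198 CPM in G906D, against 4076, 6415 and 5727 CPM in WT at 2 h. PYC1, a pyruvate carboxylase, changed by −0.06, 0.23 and −0.13, and MIG1, the repressor of glucose-repressed genes, by −0.07, 0.59 and 0.36. In C719A, 2 of the 10 rose and 4 fell at 0 h, 1 rose and 4 fell at 1 h, and 4 fell at 2 h. The shares of all genes were 27%, 17.3% and 27.5% higher and 26.7%, 18.4% and 28.9% lower, so several of these counts are near them. CTT1, the cytosolic catalase, changed by −1.07, 0.65 and −0.86 in G906D, and was at 255, 238 and 309 CPM in G906D, against 338, 798 and 547 CPM in WT at 0 h. The 6 heat and stress members had median departures of −0.35, 0.03 and −0.35, and in C719A none rose and 2 fell at 0 h, 1 fell at 1 h, and 1 rose and 4 fell at 2 h. HSF1, the heat shock factor itself, changed by 0.37, 1.13 and 0.99 in G906D.

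Transporters were mixed. The 7 members had median departures of −0.77, −0.12 and −0.04. PMR1 and PMC1, calcium pumps of the Golgi and the vacuole, changed by −0.21 and −0.11 at 0 h and by 0.04 and −0.17 at 2 h, whereas HIP1, the histidine permease, changed by 1.08, 0.84 and 1.31. In C719A, 1 of the 7 rose and 4 fell at 0 h and at 1 h, and 3 rose and 1 fell at 2 h. The 7 transcription genes stayed with the chromosome, with median departures of 0.02, 0.04 and 0.04, and in C719A 2 rose and 2 fell at 0 h, 3 rose at 1 h, and 2 rose and 1 fell at 2 h, where 27%, 17.3% and 27.5% of all genes rose and 26.7%, 18.4% and 28.9% fell. The 8 cell cycle and spindle genes had median departures of −0.13, −0.06 and −0.05. CLB1, a mitotic cyclin, changed by 0.99, −0.72 and 1.45, and was at 48.3, 37.2 and 32.5 CPM in G906D, against 69.2, 83.0 and 41.8 CPM in WT at 1 h. Sterol and lipid genes had median departures of 0.06, 0.20 and 0.51 over 6 members, with OLE1, the fatty acid desaturase, at a change of −0.94 at 1 h. In C719A, 2 of the cell cycle genes rose and 1 fell at 0 h, 1 rose at 1 h, and 3 rose and 1 fell at 2 h, and of the sterol and lipid genes 2 rose and 1 fell at 0 h, 1 fell at 1 h, and 2 rose and 1 fell at 2 h. Against the shares of all genes just given, most of these counts are near the background. The 5 pheromone and cell type members had median departures of 0.22, 0.04 and 0.57, and in C719A 2 rose at 0 h and at 1 h, and 4 rose and 1 fell at 2 h.

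**Figure D5:**
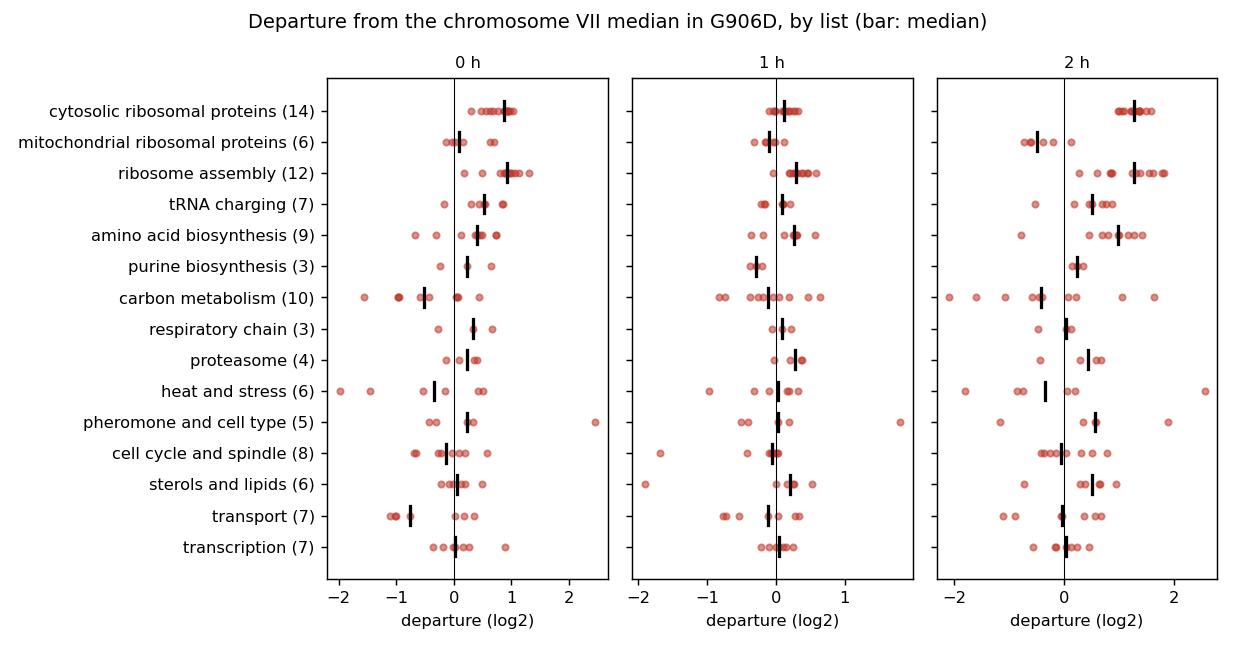
Departure of the members of 15 lists from the median change of chromosome VII in G906D against WT (log2) at 0, 1 and 2 h, with a point for each gene, a bar for the median of the list and the number of members in brackets. Ribosomal protein and ribosome assembly genes lie to the right at 0 h and 2 h, with medians of 0.87 and 0.93 at 0 h, and close to 0 at 1 h.

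The departures ran against the response of the same genes to heat in WT. Split into 4 equal sets by that response, the members that fell most between 0 h and 2 h in WT (n = 134) had a median change of 1.33, 1.08 and 1.53 in G906D against WT, and those that rose most had 0.57, 0.87 and 0.48. Genes of other chromosomes within the same limits of the WT response had medians of 0.31, 0.06 and 0.52 at the falling end (n = 1466) and −0.35, −0.14 and −0.51 at the rising end (n = 1256). The values at 0 h and 2 h share the WT libraries with the heat response, and those at 1 h do not. By level, the 134 members with the lowest FPKM had medians of 0.71, 0.85 and 0.80, and the 134 with the highest had 1.16, 1.03 and 1.16. The 19 members without an R64 gene record, mostly dubious reading frames that share reads with a neighbour, had medians of 0.87, 1.03 and 0.94.

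C719A differed from WT at many members, but in both directions alike. At 0 h, 155 members were called higher and 146 lower, where 27% and 26.7% of all genes were. At 1 h the counts were 98 and 114, beside 17.3% and 18.4% of all genes, and at 2 h 152 and 150, beside 27.5% and 28.9% (edgeR, adjusted over 6386 genes). The share of members called was therefore near that of all genes. STR3 rose most at 2 h, to 113, 115 and 104 CPM in C719A, against 18.1, 17.9 and 20.6 CPM in WT, a change of 2.56 ± 0.13 (adjusted p = 1.16e-13). ARO5 rose by 2.54, TPO2, a polyamine exporter, by 2.16, TRP5 by 1.92 and CDC20, an activator of the anaphase-promoting complex, by 1.85. Among members with a mean of at least 5 on the log2 CPM scale, CTT1 fell most at that time, by 1.98 ± 0.32 (adjusted p = 1.13e-05), followed by FMP48 with a fall of 1.94, GND2, MTO1, an enzyme of mitochondrial tRNA modification, with a fall of 1.47, and MGA1. Below that level, SPG1, named after its values were seen, fell to 13.2, 13.0 and 12.5 CPM in C719A, against 89.3, 50.9 and 55.3 CPM in WT, by 2.34 ± 0.26 (adjusted p = 5.57e-08). At 0 h the largest called rises among members of that level were those of STR3 (1.71), ARO5 (1.70), MF(ALPHA)2 (1.54), SDA1 (1.52) and DBP3 (1.37), the last 2 for factors of ribosome assembly. BTN2, which sorts misfolded proteins, fell most at 0 h, to 165, 180 and 162 CPM in C719A, against 424, 1019 and 720 CPM in WT, by 2.09 ± 0.27 (adjusted p = 9.11e-07). YHB1, a flavohemoglobin that detoxifies nitric oxide, fell by 1.59, ZPR1 by 1.51, SNT2 by 1.48 and SCW11, a cell wall protein, by 1.46.

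The response to 2 h at 37 °C was spread over the members as over other genes. In G906D 209 members rose and 171 fell, beside 35% and 32% of all genes. In C719A 194 rose and 175 fell, beside 34.8% and 32.3%, and in WT 213 rose and 178 fell, beside 35.7% and 33.9%. Scaling by library size alone gave 361 and 70, 304 and 103, and 297 and 116 in G906D, C719A and WT. The median change of all genes was then 0.518, 0.356 and 0.299, against 0.038, 0.033 and 0.017 under TMM. Directions are therefore relative to the bulk of transcripts. The response differed between G906D and WT in both directions, with 79 members higher and 58 lower, beside 12.7% and 10.6% of all genes. Between C719A and WT it differed at 108 higher and 104 lower members, beside 18.6% and 18.2%. The difference between G906D and WT had a median of 0.05 over the members and 0.03 over the other genes.

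Among members called, with a symbol and a mean of at least 5 on the log2 CPM scale, TPO2 had the largest difference. It was at 826, 802 and 867 CPM in G906D, against 50, 86.1 and 83.5 CPM in WT at 2 h, and at 1032, 1140 and 990 CPM in G906D, against 442, 332 and 410 CPM in WT at 0 h. Its change of −0.34 in G906D was not called (adjusted p = 0.117), it fell by 2.43 in WT, and the difference was 2.09 ± 0.27 (adjusted p = 1.47e-05). PMA1, the proton pump of the plasma membrane, changed by −0.30 in G906D and fell by 1.78 in WT, a difference of 1.48 ± 0.28 (adjusted p = 0.000484). MUP1, the methionine permease, rose by 1.40 in G906D and changed by −0.20 in WT, a difference of 1.6 ± 0.36 (adjusted p = 0.00234). YOR1, a multidrug transporter, rose by 1.31 in G906D and changed by 0.03 in WT (difference 1.28, adjusted p = 4.74e-05). ZPR1 fell in both strains, by 3.0 in G906D and 4.48 in WT (difference 1.47, adjusted p = 0.00329).

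Among the same members, LIF1 had the largest difference in the other direction. It stood at 418, 408 and 495 CPM in G906D, against 65.5, 65.4 and 75.04 CPM in WT at 0 h, and at 96.3, 90.1 and 89.5 CPM in G906D, against 35.9, 37.3 and 40.9 CPM in WT at 2 h. It fell by 2.26 in G906D and by 0.85 in WT, a difference of −1.41 ± 0.13 (adjusted p = 5.97e-08). LIF1 is written towards MF(ALPHA)2, and the libraries as described do not mark strand. Any reads that run on from MF(ALPHA)2 into LIF1 cannot be told apart, and their part was not tested. STF2 fell by 1.11 in G906D and changed by 0.11 in WT (difference −1.22, adjusted p = 0.000511). CBP4, an assembly factor of the cytochrome bc1 complex, fell by 0.60 in G906D and rose by 0.60 in WT (difference −1.21, adjusted p = 5.59e-05). OLE1 changed by −0.26 in G906D and rose by 0.92 in WT (difference −1.18, adjusted p = 0.00169). SOL4, a 6-phosphogluconolactonase, changed by 0.37 in G906D and rose by 1.51 in WT (difference −1.14, adjusted p = 0.0143), and without the WT 2 h library A the difference was −0.88 and not called (adjusted p = 0.0632). Outside these members, and named after their values were seen, the differences at either end were those of YGR038C-B, a gene of a Ty element, with 3.21 ± 0.91 (adjusted p = 0.0119), and SPG1, with −2.12 ± 0.37 (adjusted p = 0.000217). The value of YGR038C-B rests on uneven libraries. It had 960, 289 and 1905 counts in G906D at 2 h, against 95, 130 and 92 in WT. In C719A at 0 h it had 1876, 218 and 251 counts. Reads of Ty genes cannot be placed with certainty.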

How the data were processed

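RNA-seq libraries of 3 yeast strains at 3 times, 3 libraries each, were analysed. Per the labels, TopHat2 and Bowtie2 were used by the authors; the counting tool, annotation, genome build and strand setting are not given in the sources used here. The deposited counts are whole reads per gene made by the authors, unnormalised. The deposited FPKM values, made by the authors from these counts, gene length and the library total, served for levels between genes and for 1 alternative. Total counts had a median of 17523615 per library, and the counting precision entered the tests through the fitted dispersion.

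Counts of all 27 libraries were fitted in 1 model (strain and time as 9 groups) with edgeR 4.0.16 in R 4.3.3: filterByExpr, TMM, the quasi-likelihood test and Benjamini-Hochberg adjustment over 6386 genes, called at 0.05. Python 3.11.15 with pandas 2.3.3 and matplotlib 3.10.9 gave medians, classes and figures. Alternatives were DESeq2 1.42.0, limma 3.58.1 on log2(FPKM + 1), other scalings and filters, other class sizes and each library left out. The procedure was tested on simulated data. Names and promoters came from RefSeq R64. The members and gene lists were chosen with earlier results of these data known.

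Genes were named by rule: list members as counts with examples of large and small departure, the low and high members, pairs with a partner on another chromosome, the 5 largest called rises and falls in C719A at 0 h and 2 h, the 5 called heat differences at either end, the members at the chromosome ends and centromere, and rows beside the count minimum. Per-library values were added for examples chosen after their values were seen.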

Additional observations from a re-analysis of the deposited data

Results flagged for a closer look

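At some members the heat response between 0 h and 2 h differed between strains by a test of the difference itself. Between G906D and WT it was higher in G906D at 79 of the 536 members and lower at 58, beside 12.7% and 10.6% of all genes. Between C719A and WT it was higher in C719A at 108 members and lower at 104, beside 18.6% and 18.2% of all genes (edgeR). In both comparisons the share of members called was near that of all genes, so nothing about the chromosome is read from the counts. With library size alone as scaling, the counts for G906D were 182 and 28. The comparisons share the WT libraries, and that of G906D uses the libraries on which the members were selected. Among called members with a symbol and a mean of at least 5 on the log2 CPM scale, the largest differences between G906D and WT on the log2 scale were as follows: TPO2 had 2.09, MUP1 1.6, PMA1 1.48, ZPR1 1.47 and YOR1 1.28. At the other end LIF1 had -1.41, STF2 -1.22, CBP4 -1.21, OLE1 -1.18 and SOL4 -1.14. Groups of 3 libraries were not tested for single libraries that stand apart.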

How the results depend on the processing

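Of 2951 values under alternatives, 2892 were labelled the same. For a fold change of a named gene, this label asks for the same direction and call and not for the same size. For a count it allows a change of up to 1.5 times, and for a shift or departure a move under the SD of the G906D libraries. Among 1968 values of named genes 21 moved, 1 lost its call (SOL4, without the WT 2 h library A) and 0 reversed. Scaling by library size alone moved the members called lower in G906D against WT to 35 at 0 h and 18 at 2 h, the heat response to 361 higher and 70 lower in G906D and 304 and 103 in C719A, and to 116 lower in WT, and the difference of the heat response between G906D and WT to 182 and 28. The higher share of member calls then went to 83.8% against 55% under TMM for heat in G906D, 74.7% against 52.6% in C719A, 71.9% against 54.5% in WT, 86.7% against 57.7% for the difference in G906D, and 31.6% against 46.2% for C719A against WT at 1 h. Limma on log2(FPKM + 1), which has no TMM scaling, gave shifts of 0.9767, 0.9966 and 1.0152 at 0, 1 and 2 h, 32 and 17 members lower in G906D at 0 h and 2 h, a heat response of 361 and 72 in G906D, 305 and 102 in C719A and 115 lower in WT, and a difference of 175 and 29. A class size of 0.5 gave 22 low and 7 high members, and a size of 1.0 gave 1 low member. Chosen after seeing the data, leaving out the ribosomal protein, ribosome assembly and amino acid lists gave shifts of 0.9702, 0.9966 and 1.006, and C719A as the strain compared with gave 3 high members. Leaving out 1 library gave shifts at 1 h of 1.0049 to 1.0212, 5 to 14 members lower in G906D at 0 h (5 without the WT 0 h library C), 1 to 2 at 1 h (1 without the WT 1 h library B or the G906D 1 h library C), 4 to 10 at 2 h (4 without the G906D 2 h library C) and 4 to 14 low members. The cause was not tested. The letters A to C did not pair the libraries: correlations of same-letter deviations lay between -0.366 and 0.380, with 9 of 27 over 0.1. With the letter as a replicate block the shifts were 1.0016, 1.0074 and 1.0376, and no count of calls moved by over 1.5 times.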
